A study of Homo sapiens with 14 samples.

Results

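The pentose phosphate pathway enzymes described here are the products of PGLS, PGD, RPIA, RPE, TKT and TALDO1. They are 6 of the 19775 genes that a probe set of the array names alone, and every probe set annotated to one of them was taken. They were chosen by pathway membership with their log2 ratios of miR-124 to control in these arrays already seen, RPIA above all. Those ratios, and the limma calls made on them below, are therefore a description here and not a test. HepG2 cells, an established human line from a liver tumour, received miR-124 in one arm and a negative control in the other by transfection. miR-124 is a microRNA abundant in neurons that lowers messenger RNAs carrying sites that match it. Total RNA was taken from each transfection 4, 8, 16, 24, 32, 72 and 120 h later and put on 1 array per sample, 14 in all. No other agent or genotype is given in the labels, and nothing in them says that arrays came from separate cultures.

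The pentose phosphate pathway branches from glycolysis at glucose 6-phosphate. Its oxidative branch makes NADPH, the reducing agent for lipid synthesis and for keeping glutathione reduced, and ends in ribulose 5-phosphate. Its non-oxidative branch turns that sugar into ribose 5-phosphate for nucleotides or back into glycolytic sugars. RPIA makes ribose 5-phosphate and RPE makes xylulose 5-phosphate from the same substrate, and transketolase and transaldolase then exchange carbon units among the sugars. RPIA has been reported as a target of miR-124 in colorectal cancer cells, together with PRPS1, which acts on ribose 5-phosphate. The first enzyme of the oxidative branch was not analysed here.

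The deposited values are log2 values per probe set from RMA, a method that brings the arrays to alike distributions, which hides any change in the total messenger RNA of a cell. The arrays stood alike in their medians (6.15 to 6.21 on the log2 scale), and arrays have no read depth, so their number limits the precision. On the miR-124 array of 4 h the 18S ribosomal RNA control probe sets were high, at 11.1 against 8.70 on the control array of that time. The excess of 3′ over 5′ signal for ACTB, which reflects RNA quality, was 0.351 to 0.561 (log2) on miR-124 arrays and 0.102 to 0.348 on control arrays. It was 0.561 against 0.271 in the 24 h pair and 0.411 against 0.102 in the 120 h pair. For GAPDH the ranges overlapped, at 0.195 to 0.301 with miR-124 and 0.031 to 0.247 in the control. All 7 measured hepatocyte markers lay above the filter on low values, 6.19 on the log2 scale, and the list's mean level was 12.8 to 13.1 with miR-124 and 12.8 to 13.3 in the control. Of 3 measured blood cell markers and 4 fibroblast and endothelial markers, PTPRC (mean 5.39), CD14 and COL3A1 (mean 5.12) lay below that filter. Late, over 72 and 120 h, limma called CD3D (log2 1.44 ± 0.25, with 2.05 at 72 h and 0.83 at 120 h) and the endothelial marker PECAM1 (0.46 ± 0.11, not called without 72 h) higher with miR-124, and the hepatocyte marker FGB lower (−0.46 ± 0.09). The mean level of the blood list was 5.94 to 6.78 with miR-124 and 5.77 to 6.18 in the control, that of the other list 6.98 to 7.24 and 6.89 to 7.09. The part of RNA quality or of these markers in any result below was not tested.

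RPIA was the enzyme set apart by miR-124. In control cells its level was 9.65, 9.66, 9.72, 9.70, 9.58, 9.70 and 9.57 (log2) from 4 to 120 h. In miR-124 cells it was 9.40, 8.67, 8.09, 7.62, 7.63, 7.48 and 8.59 at the same times. The control arrays stayed within 0.15 of each other over the whole culture, while the miR-124 arrays covered a range of 1.92. Every miR-124 array lay below every control array, with a gap of 0.17 between the highest of the first and the lowest of the second. Among the 13128 genes tested such a full separation downwards was found in 80, or 0.609%, and a lower value in all 7 pairs in 628, or 4.78%.

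The paired RPIA ratio, miR-124 minus control, was −0.24, −0.999, −1.63, −2.08, −1.96, −2.22 and −0.98 (log2) from 4 to 120 h. In order of time, miR-124 cells thus held 84.4%, 50.0%, 32.3%, 23.7%, 25.8%, 21.5% and 50.8% of the control level. The lowest share was that of 72 h, and at 120 h the ratio was again close to its 8 h value. RPIA was past 2-fold lower at 16, 24, 32 and 72 h, times at which 0.495%, 1.44%, 1.87% and 5.93% of all genes were, and no other of the 6 enzymes was at any time. RPIA was among the genes with the lowest ratio as early as 8 h, when only 8 of the 13128 genes lay lower. The number of genes below it was 12 at 16 h, 14 at 24 h and 24 at 32 h. At 72 h it was 90 and at 120 h 166, and the spread of the ratio over all genes was then also larger (SD 0.61 and 0.43, against 0.15 at 8 h). At 4 h, the time of the array with the high 18S signal, 1014 genes lay below RPIA.

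**Figure D1:**
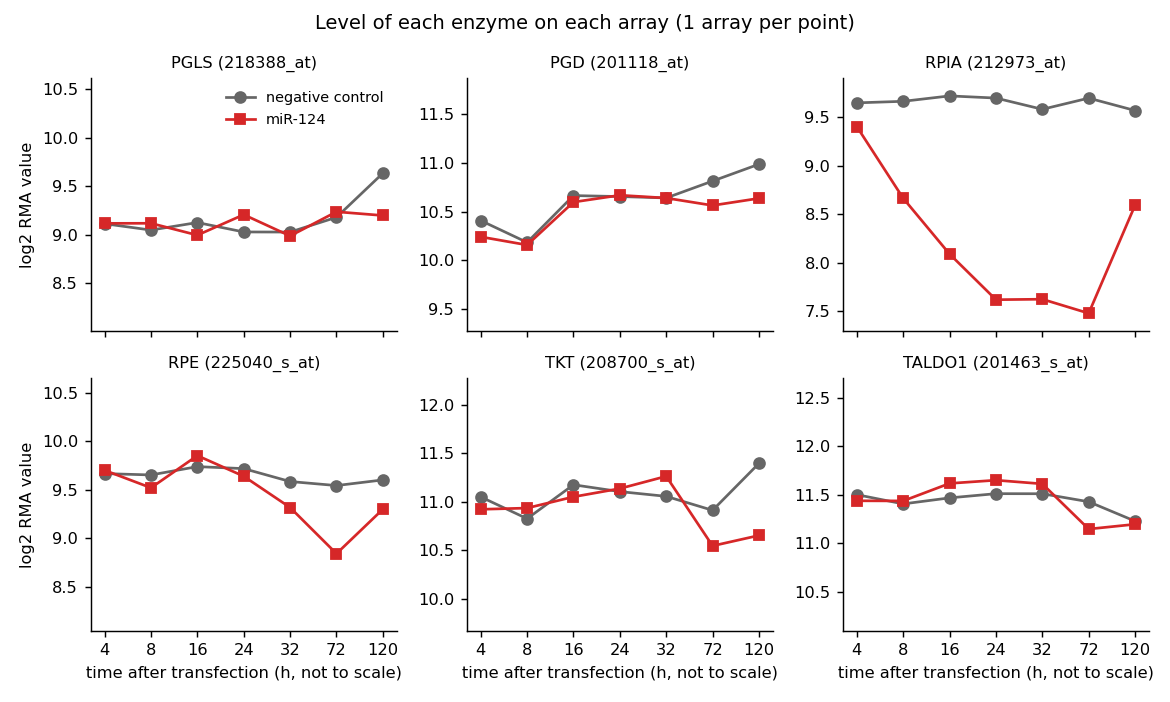
Log2 RMA value (vertical axis, the same span of 2.6 in each panel) against time after transfection in h (horizontal axis, not to scale) for the main probe set of each of the 6 enzymes. Grey circles are negative control arrays and red squares miR-124 arrays, 1 array per point with no error bar. Only for RPIA do the arms stay fully apart, with miR-124 arrays at 7.48 to 9.40 and control arrays at 9.57 to 9.72.

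Averaged over 16, 24 and 32 h, the middle window, RPIA was 3.70-fold lower with miR-124 (log2 −1.89 ± 0.23, SE, n = 3 pairs). Over 72 and 120 h, the late window, it was 3.02-fold lower (log2 −1.60 ± 0.28, SE, n = 2 pairs). Over 4 and 8 h it was 1.54-fold lower (log2 −0.62 ± 0.28, SE, n = 2 pairs). The standard errors come from how paired ratios varied between times, since no time had a replicate. That spread was pooled over the 3 windows and drawn by limma toward that of the other genes. An SE is therefore not the spread of the pairs of its own window, here or below. In the middle window limma (Benjamini-Hochberg adjusted p under 0.05) called 1 of the 6 enzymes, RPIA, lower, where 4.36% of all genes were called lower and 3.47% higher. The enzymes were chosen with these ratios seen, so this call is a description. Without 24 h or without 32 h RPIA was not called in that window, its estimate then being −1.79 or −1.85, and limma called only 0 or 12 genes of the whole table. In the early window it called 0 genes of 13128 (0.0%), with 163 at an unadjusted p under 0.05. The late estimate rested on unlike times, at −2.22 from 72 h alone and −0.98 from 120 h alone.

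PGLS and PGD carry the later steps of the oxidative branch. PGLS, the lactonase, had ratios of 0.00, 0.07, −0.13, 0.18, −0.04, 0.06 and −0.44 in order of time. Its miR-124 arrays lay between 8.99 and 9.24 at all times. The control value of 120 h, 9.63, was the highest of its 14 values, the other control arrays lying at 9.03 to 9.18. The 120 h ratio of PGLS therefore came with a higher control level and not with a lower miR-124 level.

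PGD, the dehydrogenase that yields NADPH and ribulose 5-phosphate, was at 10.24, 10.15, 10.60, 10.67, 10.64, 10.56 and 10.64 with miR-124 from 4 to 120 h. In the control it was at 10.41, 10.18, 10.66, 10.65, 10.64, 10.81 and 10.99. Both arms were lowest at 8 h and higher from 16 h on, and they parted at 72 and 120 h, with ratios of −0.25 and −0.35. The middle estimate was −0.02 ± 0.07 (SE, n = 3 pairs) and the late one −0.30 ± 0.08 (SE, n = 2 pairs), which is 1.23-fold lower.

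RPE, the epimerase that shares its substrate with RPIA, did not follow it in the first day. Its control level was 9.55 to 9.74 over the 7 times. With miR-124 it was 9.70, 9.52, 9.85, 9.64, 9.32, 8.84 and 9.30 from 4 to 120 h. At 16 h, where RPIA was 3.09-fold lower, RPE had its highest ratio, 0.11, and its ratio was −0.08 at 24 h and −0.27 at 32 h. It reached −0.70 at 72 h and was −0.30 at 120 h. The middle estimate was −0.08 ± 0.10 and the late one −0.50 ± 0.13 (SE), or 1.42-fold lower.

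TKT, the transketolase, had miR-124 levels of 10.92, 10.94, 11.05, 11.14, 11.26, 10.55 and 10.65 and control levels of 11.05, 10.83, 11.18, 11.11, 11.06, 10.91 and 11.40. Up to 32 h the ratios of its main probe set lay between −0.13 and 0.21, with 2 of the 5 below 0. At 72 h the ratio was −0.37 and the miR-124 array was the lowest of the 14. At 120 h it was −0.74, with the control array the highest of the 14 for this probe set, and only 2.7% of genes had a ratio as low. The late estimate was −0.55 ± 0.12 (SE, n = 2 pairs), or 1.47-fold lower, after 0.04 ± 0.10 in the middle window.

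TALDO1, the transaldolase, lay above its control at 16, 24 and 32 h, by 0.15, 0.14 and 0.10, and below it at 72 and 120 h, by −0.28 and −0.03. Its miR-124 levels were 11.44, 11.43, 11.62, 11.65, 11.61, 11.14 and 11.19 and its control levels 11.50, 11.40, 11.47, 11.51, 11.51, 11.43 and 11.23. The values of its arms overlapped, with 2 miR-124 arrays below all control arrays and 3 above them. The estimates were 0.13 ± 0.07 in the middle window and −0.16 ± 0.09 late (SE).

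**Figure D2:**
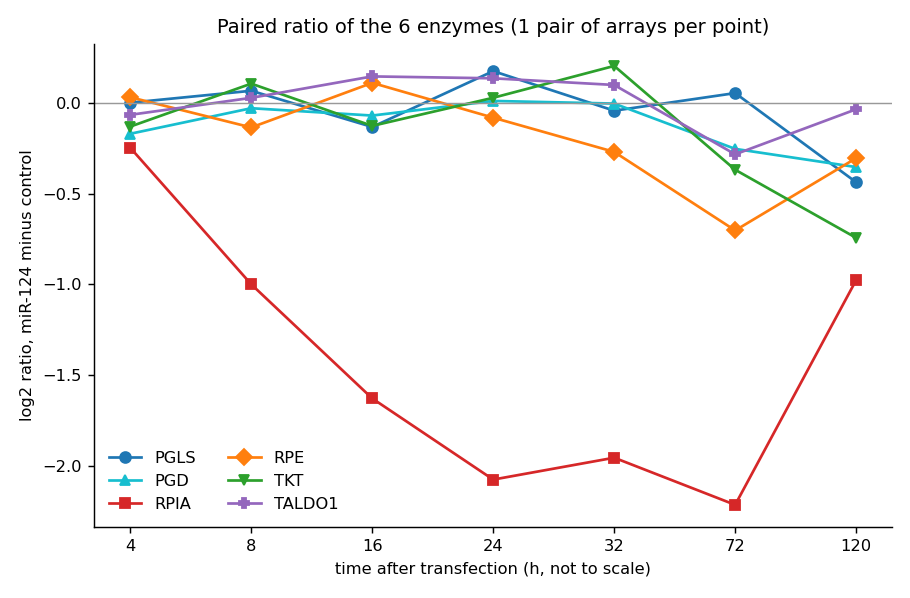
Paired log2 ratio, miR-124 minus control (vertical axis), against time after transfection in h (horizontal axis, not to scale) for the main probe set of each of the 6 enzymes. Each point is 1 pair of arrays, with no error bar. From 4 to 32 h PGLS, PGD, RPE, TKT and TALDO1 lie between −0.27 and 0.21, while RPIA reaches −2.08, and at 120 h RPIA lies at −0.98 and TKT at −0.74.

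Set against the other 5 steps, RPIA differed from their median ratio by −0.18, −1.03, −1.56, −2.11, −1.96, −1.94 and −0.62 in order of time. RPIA had the lowest ratio of the 6 at each of the 7 times, by main probe sets. At 4 h, where RPIA was at −0.24, the other TKT probe sets (−0.29 and −0.26) and an RPE one (−0.35) lay lower. The other 5 had a median ratio near 0 through 32 h, from −0.07 to 0.03, and of −0.28 at 72 h and −0.35 at 120 h. At 120 h all of them lay below control, the lowest being TKT. The distance of RPIA to the lowest of the others was −1.499 at 16 h, −1.999 at 24 h and −1.69 at 32 h, and only −0.23 at 120 h. In the late window limma called 4 of the 6 enzymes lower, RPIA, TKT, RPE and PGD, where 12.6% of all genes were called lower and 16.5% higher. These calls too are a description. RPE was not called without 72 h (−0.30), and TKT (−0.37) and PGD (−0.25) not without 120 h. PGD was also not called without 24 h or without 32 h, and PGLS was called without 72 h (−0.44). Over the 6 enzymes the median estimate was −0.01 in the middle window and −0.40 late, where the medians of all genes were 0.03 and −0.01.

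Proliferation markers moved at the same late times. Of 10 tested, 8 were lower late and 0 higher (limma), with a median estimate of −1.48, and none was called in the middle window. The median over these markers stood at −0.13 for the 32 h pair, −2.23 for the 72 h pair and −0.61 for the 120 h pair. At 24 h RPIA was at 23.7% of control and the median of these markers was −0.09, with 8 of the 10 below 0. The part of proliferation in the values of the enzymes, RPIA included, was not tested at any time.

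The array holds 17 probe sets for the 6 enzymes, of which 12 lay above the filter, and RPIA and TALDO1 have 1 each, so for these 2 no other probe set could be set beside the result. The 3 RPE probe sets above the filter that name RPE alone had late mean ratios of −0.50, −0.55 and −0.39. The remaining one, which also names RPEL1, a close copy, had −0.53, and RNA of either gene may bind it. All 4 were above control at 16 h, by 0.11 to 0.31. The 3 TKT probe sets had late means of −0.55, −0.48 and −0.52 but parted in the middle window, at 0.04, −0.08 and −0.18. They also parted in the control at 120 h. That array was the highest of all for the brighter ones (11.40 and 11.21) but the lowest control array for the dimmest (7.24). Both bright PGLS probe sets were near 0 in the middle window (0.00 and 0.02) and at −0.19 late, with −0.44 and −0.36 at 120 h. The 5 probe sets below the filter, 2 of PGLS, 2 of PGD and 1 of RPE, had ratios of −0.29 to 0.31. The late difference of PGD was seen in its brightest probe set (−0.30) and not in its 2 dim ones (both 0.02). PGD was not called when its probe sets were averaged (−0.08).

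**Figure D3:**
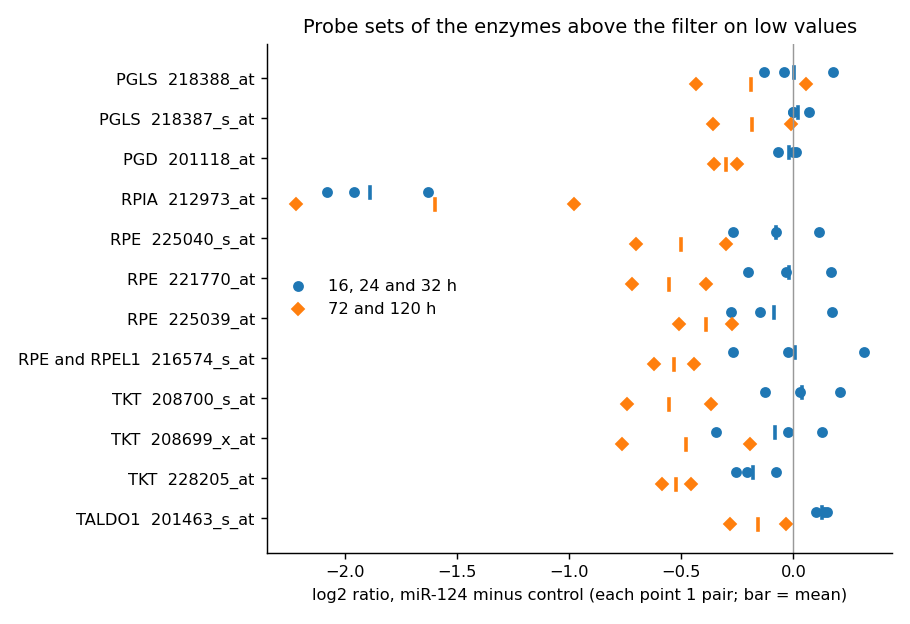
Log2 ratio, miR-124 minus control (horizontal axis), for the 12 probe sets above the filter on low values, 1 row each. Blue circles are the pairs of 16, 24 and 32 h, orange diamonds those of 72 and 120 h, and vertical bars the means. The RPIA probe set lies at −0.98 or below in all 5 pairs shown, and the RPE and TKT probe sets lie below 0 in both late pairs.

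In control cells RPIA differed little between times. Its slope there was −0.01 ± 0.02 (log2 per doubling of time, SE, n = 7 arrays), with RPE at −0.02 ± 0.02 and TALDO1 at −0.03 ± 0.02. TKT was at 0.05 ± 0.04, PGLS at 0.08 ± 0.04 and PGD at 0.14 ± 0.03. PGD was the 1 enzyme of 6 called higher with time, where 2.71% of all genes were called higher and 5.49% lower, and it lost that call without 8, 24, 72 or 120 h and with probe sets averaged, where its slope was 0.04. From the first to the last control array PGD differed by 0.58, PGLS by 0.52 and TKT by 0.35, each in its main probe set. The dimmest TKT probe set went the other way, from 7.70 to 7.24. With probe sets averaged the slope was 0.02 for TKT and 0.03 for PGLS. RPIA differed by −0.08 and RPE by −0.07.

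Other genes of the pathway and its exits were taken from a written list of 13, of which 12 were measured and 10 tested. In the middle window 2 were lower and 1 higher (limma), and late 3 were lower and 3 higher (median −0.09 and −0.15). Of all genes 4.36% were called lower and 3.47% higher in the middle window, and 12.6% lower and 16.5% higher late, shares against which this count and those of the lists below are to be read. The middle count of 3 was 0 without 24 h or without 32 h (TIGAR, PRPSAP1 and PGM2 all lost their calls), 2 without 4 h or 8 h and 5 without 72 h or 120 h. The late count of 6 was 3 without 24 h. It was 4 without 4, 8, 32 or 72 h. TIGAR, a phosphatase that lowers fructose 2,6-bisphosphate and so favours entry of glucose into this pathway, rose 2.02-fold in the middle window (log2 1.02 ± 0.15, limma adjusted p = 0.00888) and 2.56-fold late (log2 1.36 ± 0.18, adjusted p = 0.00161). Its ratios were 0.06, −0.05, 0.55, 1.16, 1.34, 1.56 and 1.15 from 4 to 120 h, above 0 in 6 of 7 pairs.

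Among the genes around ribose 5-phosphate, PRPSAP1 and PGM2 were called lower in both windows, PRPSAP2 was called higher late, and PRPS1 and PRPS2 were called in neither. PRPS1, which makes the nucleotide precursor PRPP from it, had ratios between −0.03 and 0.19 and estimates of 0.08 ± 0.07 in the middle window (limma adjusted p = 0.643) and 0.08 ± 0.09 late (adjusted p = 0.575). Its late estimate turned to −0.18 with probe sets averaged and to −0.03 without 120 h, and was called in none of the alternatives run. Its paralog PRPS2 was at −0.62 ± 0.25 and −0.74 ± 0.30, which did not pass (limma adjusted p = 0.206 and 0.109). The PRPS2 ratio was 0.08, −0.07, −0.13, −0.69, −1.03, −1.43 and −0.05 from 4 to 120 h, so that it was lowest at 72 h and near control at 120 h. Its middle estimate, still −0.62, was called without 72 h or without 120 h. For that window these are the same fit, since the late pair left adds no spread. Without 120 h its late estimate was −1.43, from the 72 h pair alone. PRPSAP1, which associates with these synthetases, fell by 0.54 ± 0.08 in the middle window (limma adjusted p = 0.00796) and by 0.93 ± 0.09 late (adjusted p = 0.000534) on the log2 scale, the middle call being lost also with probe sets averaged (−0.26) or with no time block, and the late estimate being −0.61 with probe sets averaged. PRPSAP2, its paralog, was at 0.20 ± 0.06 in the middle window (adjusted p = 0.111) and rose late, at 0.37 ± 0.08 (limma adjusted p = 0.0102). PGM2, which converts ribose 1-phosphate into ribose 5-phosphate, was 2.10-fold lower in the middle window (log2 −1.07 ± 0.24, limma adjusted p = 0.0392) and 2.09-fold lower late. Its ratio ran from 0.16 at 4 h to −1.70 at 72 h and was −0.42 at 120 h. Without 4, 8 or 24 h PGM2 was called in neither window, without 32 h only late and without 72 h only in the middle one.

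**Figure D4:**
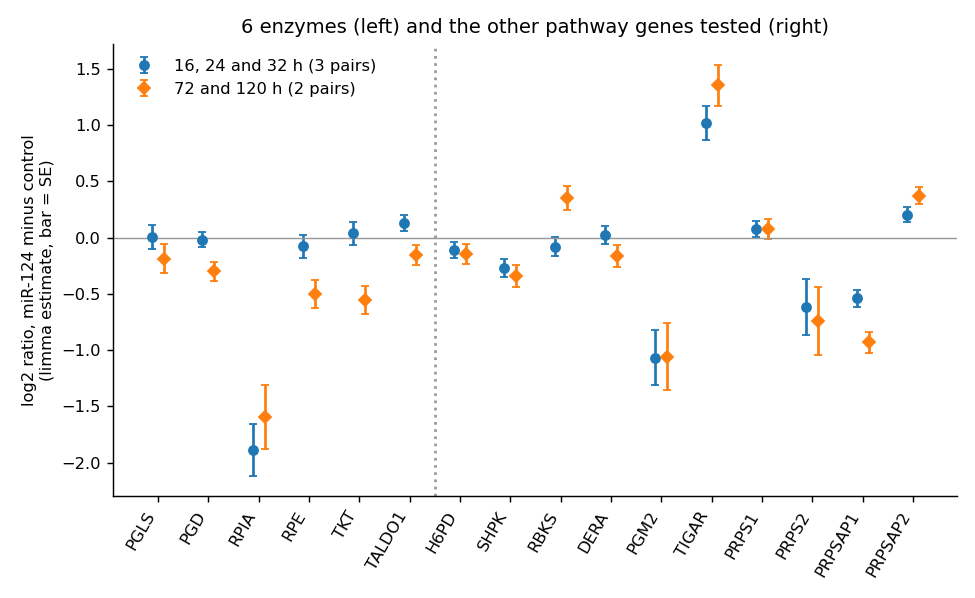
Limma estimate of the log2 ratio, miR-124 minus control (vertical axis, bars are SE), for the 6 enzymes left of the dotted line and the 10 tested genes of the list right of it. Blue circles are the middle window (3 pairs) and orange diamonds the late window (2 pairs). RPIA lies lowest in both, at −1.89 and −1.60, and TIGAR highest, at 1.02 and 1.36.

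Genes of the nucleotide pathways that use ribose 5-phosphate were called lower in the late window. Whether this differed from the middle window was not tested. Of 12 tested genes of purine synthesis and salvage, 0 were called in the middle window (limma, median −0.07) and 6 were lower late with 0 higher (median −0.45). These were IMPDH2, of guanine nucleotide synthesis, at −0.72 ± 0.08 (limma adjusted p = 0.000803), and PAICS, GMPS, ATIC, ADSL and GART at −0.60 to −0.38. The ATIC call held without 120 h but not without any other time, nor with arrays centred. With probe sets averaged PAICS (−0.38) and GART (−0.22) were not called. The count was 1, IMPDH2, without 72 h, with a list median of −0.63 in the 72 h pair and −0.16 in the 120 h pair. Of 7 pyrimidine genes 3 were lower late, DTYMK at −0.89 ± 0.20, CAD at −0.59 ± 0.19 and CTPS2 at −0.47 ± 0.09 (limma, list median −0.41), and 0 in the middle window. DTYMK was at −1.39 at 72 h and −0.38 at 120 h, and with probe sets averaged it was at −0.40 and not called. The CAD call (adjusted p = 0.0489) was lost without 16, 24, 32 or 72 h, with arrays centred, with no filter and with probe sets averaged (−0.26). CTPS2 was at −0.30 with probe sets averaged and still called. The late count of 3 was 2 without 16, 24 or 32 h, 5 without 120 h and 1 with probe sets averaged. The proliferation markers of the same pairs moved with them, as given above.

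NADPH can also come from other enzymes, and a written list of genes linked to its supply changed in both directions. Of 9 tested, 1 was lower in the middle window, the malic enzyme ME2 at −0.58 ± 0.10 (limma adjusted p = 0.0134, lost without 24 h or 32 h). Which cofactor ME2, or MTHFD2 named below, used here was not measured, so their calls need not concern NADPH. The malic enzymes ME1 and ME3 lay below the filter and were not tested. Late, 2 genes of the list were higher and 3 lower (median −0.15). NNT, the mitochondrial transhydrogenase, was 2.21-fold higher late (log2 1.14 ± 0.09, limma adjusted p = 0.000237) and the mitochondrial isocitrate dehydrogenase IDH2 2.17-fold higher (log2 1.11 ± 0.16, adjusted p = 0.00209). NNT had ratios of 1.21 at 72 h and 1.07 at 120 h, and IDH2 of 1.32 and 0.91. With probe sets averaged NNT was at 0.63, still called. The folate enzyme MTHFD1 was 1.99-fold lower late (limma adjusted p = 0.0371), a call lost without 4, 8, 24, 32 or 72 h. It was at −1.72 at 72 h and −0.27 at 120 h, and the late estimate was −0.47 with probe sets averaged. MTHFD2 and ME2 were lower too, at −0.48 ± 0.11 (lost without 120 h, where it was −0.29, and with no time block) and −0.50 ± 0.12 (lost without 72 h, where it was −0.28). MTHFD2 was at −0.74 with probe sets averaged.

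PGD, TKT and TALDO1 are known targets of NFE2L2, the regulator of the antioxidant response. Of 16 other NFE2L2 targets tested, 1 was lower in the middle window, ABCC3, and 5 lower late with 0 higher (limma, median −0.19), the middle share lying near that of all genes. SLC7A11, the cystine transporter, was 2.10-fold lower late (log2 −1.07 ± 0.12, limma adjusted p = 0.000864), AKR1B10 1.66-fold, GSR, the NADPH-dependent glutathione reductase, 1.61-fold, NQO1 1.39-fold and GCLM 1.297-fold. The count of 5 was 2 without 72 h and 8 without 120 h, and the call of AKR1B10 held without 120 h but not without any other time, nor with arrays centred, its ratio being −1.29 at 72 h and −0.16 at 120 h. GSR and GCLM were not called without 72 h, and GCLM not with no time block. With probe sets averaged GCLM was at −0.57. The middle call of ABCC3 was lost without 4, 8, 16, 24 or 32 h and with probe sets averaged (−0.14). Of 10 tested glycolysis steps that share sugars with the pathway, 0 were called in the middle window, and late 2 were higher (PFKP at 0.97 ± 0.13, or 0.50 with probe sets averaged, and HK1 at 0.52 ± 0.08) and 2 lower (HK2 at −0.50 ± 0.10 and GPI at −0.38 ± 0.10, lost without 24 h or 120 h). Of 11 tested genes that are reported miR-124 targets, 9 were lower in the middle window (limma, median −0.998), with VAMP3 5.16-fold and IQGAP1 4.49-fold lower. LAMC1 (−0.18 ± 0.08) and EZH2 (−0.63 ± 0.30) were not called there. The count of 9 was 0 without 24 h and 1, IQGAP1, without 32 h. This list was written with earlier results of these data known, so it is no independent check of the transfection.

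The genes whose 7 paired ratios lay nearest to those of RPIA were sought over the 13128 genes tested, by the root mean square difference over the 7 times, and this is a description. The nearest was GAS2L1, a protein that links actin and microtubules, with a difference of 0.25 (log2). CDK2, the cyclin-dependent kinase of S phase entry, followed at 0.27, KLHL14 at 0.29, MIGA1, of the mitochondrial outer membrane, at 0.30 and DEPDC1B at 0.31. The ceramide synthase CERS2, a member of the target list above, was at 0.32, with TMEM263 at 0.32 and the mitotic kinase NEK6 at 0.33. GAS2L1 (mean level 7.17) and MIGA1 (6.84) lay nearer the filter of 6.19 than RPIA did, at 8.93. At 8 h the ratios of these 8 were −0.91 for MIGA1 and −0.64 to −0.27 for the others, all above the −0.999 of RPIA. At 72 h they lay between −2.71 and −1.94, and at 120 h between −1.70 and −0.65. Pearson's r with RPIA was 0.91 to 0.98 over the 7 times, which share arrays with RPIA. Ranked by that correlation in place of the distance, the nearest 8 held 0 of these genes.

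**Figure D5:**
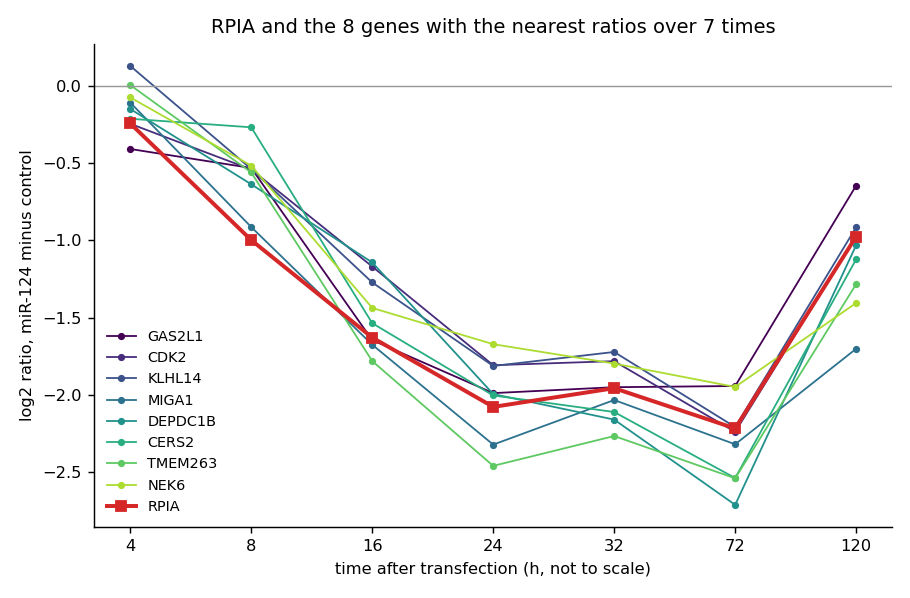
Paired log2 ratio, miR-124 minus control (vertical axis), against time after transfection in h (horizontal axis, not to scale) for RPIA (thick red line) and the 8 genes nearest to it, 1 pair of arrays per point. RPIA lies lowest of the 9 at 8 h, at −0.999, and all 9 are lower at 72 h than at 120 h.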

How the data were processed

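Total RNA of 14 samples, about 10 µg each per the labels' protocols, had been made into biotinylated cRNA and hybridised to 1-colour arrays of 54675 probe sets. Per the submitters' processing notes the authors used RMA, whose version and settings are not given in the sources used here. That the deposited values are log2 was read from their range, 2.93 to 14.4. Genes were named from GEO's platform annotation: 41091 probe sets had 1 symbol, 1801 several and 11721 none, besides 62 controls. Entrez identifiers of 41037 matched the RefSeq gene table (GRCh38.p14), and 0 symbols changed. The probe set with the highest mean stood for a gene, and 13128 genes with a mean above 6.19, the median of all probe sets, were tested.

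Tests used limma 3.58.1 in R 4.3.3 (lmFit, eBayes, two-sided, Benjamini-Hochberg over all genes tested, threshold 0.05). Time was a block, with 1 miR-124 effect for each of the 3 windows and 4 residual degrees of freedom. Pairs were those of the same labelled time. The control slope per doubling of time had 5. P-values and SEs measure the spread between times, which may be technical, because no time had a replicate. For the windows this spread was pooled over all 3 and moderated by eBayes with 3.9 prior degrees of freedom. The fits were also run on simulated data, in which a window's change was the same at each of its times. Real ratios differed between times of a window, so this does not test the SEs given here. Figures used matplotlib 3.10.9 in Python 3.11.15.

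Members and gene lists were chosen with earlier results of these data known. Named were all members, in each list at most 4 genes with the largest called estimates (further genes of a list are named to account for its count, or as PRPS1, PRPS2 and ABCC3 after their values were seen), and the 8 genes nearest to RPIA. Alternatives were array centring, no filter, averaged probe sets, no time block, a 1.5-fold minimum and each time left out. For the middle window the fits without 72 h and without 120 h are the same. For the middle and late windows so are those without 4 h and without 8 h. The mature miR-124 sequence and protein sequences were not used here.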

Additional observations from a re-analysis of the deposited data

Results flagged for a closer look

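TALDO1 lay above control in each of the 3 middle pairs and below it in both late pairs, the late mean ratio minus the middle one being −0.29 (log2). This difference was not tested. The 18S ribosomal RNA control probe sets, used in no comparison, were 2.35 (log2) higher on the 4 h miR-124 array than on its control partner. The middle and late estimates of RPIA hold no array of 4 h, but the 4 h pair enters the spread behind their SEs and calls. The part of that array in those was not tested. The 8 h ratio of RPIA was −0.999.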

How the results depend on the processing

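RPIA kept its direction in each of the 11 alternatives of each window, at −2.02 to −1.79 in the middle window and −2.22 to −0.98 late. Most of these could not move its estimate. It has 1 probe set, and the filter, the time block and times of other windows do not enter that estimate. RPIA was not called in the middle window without 24 h or without 32 h. Its calls are a description, since it was chosen with its ratios seen. Its distance to the median of the other enzymes was −1.88 in the middle window and −2.03 to −1.76 with a time left out. Late it was −1.28, but −0.62 without 72 h and −1.94 without 120 h, and it kept its direction in the alternatives run. With a time left out, the middle count of 1028 genes ran from 0 (without 24 h) to 2197 (without 72 h or 120 h), and the control slope count of 1077 from 229 to 1116. Over the 6 metabolic lists the middle count of 5 of 64 genes ran from 0 to 16 and the late count of 29 from 18 to 38. With a 1.5-fold minimum the middle count was 458 and the late count 2063. With probe sets averaged, 3 metabolic genes were called in the middle window. The early count was 0 in every alternative. Without the time block (no replicate block) 866 genes were called in the middle window and 3794 late, and RPIA stayed called in both. The alternatives for the early window and for the enzymes other than RPIA were chosen after seeing the data. The cause of these changes was not tested. Arrays have no depth, and no detection call was used here.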
